A study of Equus caballus with 14 samples.

Results

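KIR3DL, EQMHCC1 and CD2 are 3 genes of immune recognition among the 592 that could be named on an equine expression array, and they were measured by 5 of its 43603 probes. They were chosen by name, with earlier results of these data known. Their probes were found through the horse transcript to which each probe was designed, which gave 3 probes for KIR3DL, 1 for EQMHCC1 and 1 for CD2. All 5 probes passed the filter on dim probes, which asked for signal well above background on 4 or more of the 14 arrays, and no value of any of them was missing. KIR3DL was among the genes that the study had picked out from these same arrays, so its difference between groups is not independent evidence.

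Mediastinal lymph nodes were taken from 7 horses with recurrent airway obstruction (RAO, also called heaves) and from 7 healthy control horses, all adults of mixed breed. Both groups had been kept on pasture and were then stabled with dusty hay, so the control horses had met the same challenge. The groups therefore differed in disease history and also in current disease. The paper reports that the RAO-affected horses developed airway obstruction and airway neutrophilia after stabling, and that the control horses showed no signs of RAO. By the methods the RAO-affected horses were also older on average, so that age and disease cannot be told apart. Each array carried RNA from 1 horse, extracted from a piece of node that held cortex and medulla, and lower signal from fewer cells of a type and from less RNA per cell cannot be told apart.

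Killer-cell immunoglobulin-like receptors such as KIR3DL sit on natural killer cells and some T cells, where they bind MHC class I molecules on other cells and, with a long cytoplasmic tail, restrain killing. EQMHCC1 encodes an equine MHC class I heavy chain, the kind of molecule that presents peptides to cytotoxic T cells and is read by killer receptors. MHC class I genes are among the most variable of the genome between individuals. CD2 is an adhesion and costimulatory receptor of T cells and natural killer cells, whose best known ligand is CD58.

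The study used 4 slides, and both groups were present on each of them. Slide 1 was scanned on another day than the rest and carried RAO-affected horse 4 with control horses 3 and 5. Its arrays correlated with one another at 0.986 to 0.991 over all probes, and with the arrays of the other slides at 0.923 to 0.959, against 0.959 to 0.990 among those other arrays. Between 32696 and 39945 probes per array were well above background, and 1439 to 2613 were saturated. The differences of these genes are given below also with slide as a fixed block and without slide 1.

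In RAO-affected lymph nodes KIR3DL signal was lower at all 3 of its probes, by 1.84-fold at the brightest probe. EQMHCC1 was lower by 7.13-fold on average, a value held down by 2 saturated control arrays, although its values fell into separate levels that were shared by horses of both groups. CD2 differed by 1.34-fold, which was within the spread between horses. Thus 4 of the 5 probes were lower in RAO-affected horses at an unadjusted p under 0.05 in limma, where 2.76% of the 38674 probes tested were, and 3 of the 5 were also at least 2-fold lower, where 0.372% were. The 3 KIR3DL probes are repeat readings of the same RNA, and the genes were chosen with earlier results of these data known. These counts are therefore not independent evidence. No probe on the array passed after Benjamini-Hochberg adjustment over all probes (0 calls in limma, against 1069 lower and 1108 higher at an unadjusted p under 0.05), so none of these differences survived correction. With the unpaired form of the methods' t-test, 0 probes passed after adjustment and 2033 at the unadjusted threshold.

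**Figure D1:**
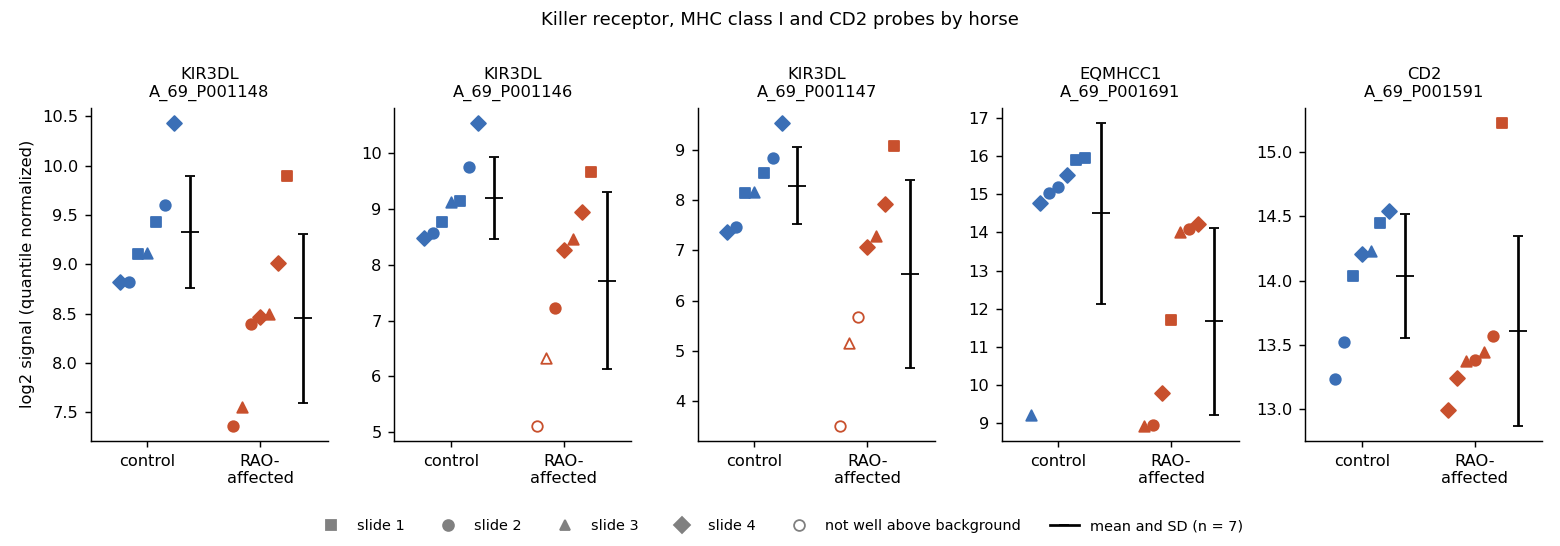
Log2 signal after quantile normalization (y axis of each panel, with its own range) of the 5 probes in 7 control and 7 RAO-affected horses, 1 point a horse, with the shape giving the slide, open points marking signal not well above background, and bars the mean and SD. For all 3 KIR3DL probes 5 of 7 RAO-affected horses lay below every control horse, for EQMHCC1 control horse 9 lay at 9.23 among the low RAO-affected horses, and for CD2 RAO-affected horse 4 lay at 15.23, above every other horse.

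KIR3DL was measured by 3 probes to the same transcript. At the brightest, A_69_P001148, the log2 signal in control horses 1, 3, 5, 7, 9, 11 and 13 was 9.61, 9.43, 9.1, 8.82, 9.12, 10.44 and 8.82, respectively. In RAO-affected horses 2, 4, 6, 8, 10, 12 and 14 it was 7.36, 9.90, 8.39, 8.49, 7.55, 8.46 and 9.02, respectively. The groups overlapped only through RAO-affected horses 4 and 14, and RAO-affected horses 2 and 10 were the lowest of all. The RAO-affected mean was 8.45 ± 0.86 (SD, n = 7) and the control mean 9.33 ± 0.57 (SD, n = 7), which gave a log2 difference of -0.88 (SE 0.39, exact two-sided permutation p = 0.0460, and p = 0.0321 unadjusted in limma). Limma's adjusted p was 0.873.

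The KIR3DL difference at this probe rested on few horses. When each horse was left out in turn the log2 difference ran from -1.12 to -0.70, and it passed the unadjusted threshold of limma in 10 of 14 fits. It no longer passed without control horse 1 (-0.83), control horse 11 (-0.70), RAO-affected horse 2 (-0.70) or RAO-affected horse 10 (-0.73). With slide as a fixed block the value was -0.76 and just missed that threshold (adjusted p = 0.431), and without slide 1 it was -1.15 and passed it. The direction differed between slides. On slide 1 the RAO-affected horse lay 0.63 above the mean of its 2 controls, whereas on slides 2, 3 and 4 the RAO-affected horses were lower, by log2 differences of -1.34, -1.10 and -0.89.

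The other KIR3DL probes were dimmer and spread more widely. A_69_P001146 measured 5.11 at the lowest, 8.27 at the median and 9.67 at the highest in RAO-affected horses, and 8.47, 9.13 and 10.55 in control horses. A_69_P001147 measured 3.51, 7.07 and 9.06 in RAO-affected horses, and 7.36, 8.15 and 9.53 in control horses. At both, as at the brightest probe, 5 of 7 RAO-affected horses lay below every control horse and none above. All 7 control horses were well above background at both. At A_69_P001146 RAO-affected horses 2 and 10 were not, which left 5 of 7. At A_69_P001147 RAO-affected horses 2, 6 and 10 were not, which left 4 of 7 and puts the lowest values near the detection limit.

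At A_69_P001146 the log2 difference was -1.48 (SE 0.66, exact two-sided permutation p = 0.0437), or 2.79-fold. At A_69_P001147 it was -1.76 (SE 0.76, exact two-sided permutation p = 0.0373), or 3.38-fold. Both passed the unadjusted threshold of limma with slide as a fixed block, at -1.37 (adjusted p = 0.417) and -1.59 (adjusted p = 0.404), and without slide 1, at -1.90 and -2.16. The size of these differences depended on how background was removed. With normexp correction they were -0.93 and -0.85, both under 2-fold, and that of the brightest probe was -0.67, each still past the unadjusted threshold of limma.

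The 3 KIR3DL probes ranked the horses almost alike. Over the 14 horses, A_69_P001148 and A_69_P001147 gave a Pearson r of 0.951 and a Spearman rho of 1.0, so that both put every horse in the same place. For A_69_P001148 and A_69_P001146 the r was 0.956 (rho 0.991), and for A_69_P001146 and A_69_P001147 it was 0.992 (rho 0.991). Each of these r and rho values had a permutation p of 1e-05, also after adjustment over the 3 pairs, which is the smallest that the permutations can give. Without the 2 horses farthest from the median, r was 0.945 to 0.978, and over the horses outside slide 1 it was 0.944 to 0.997. The probes share a transcript and an array, so these are repeat readings of the same RNA and not separate measurements of horses.

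**Figure D2:**
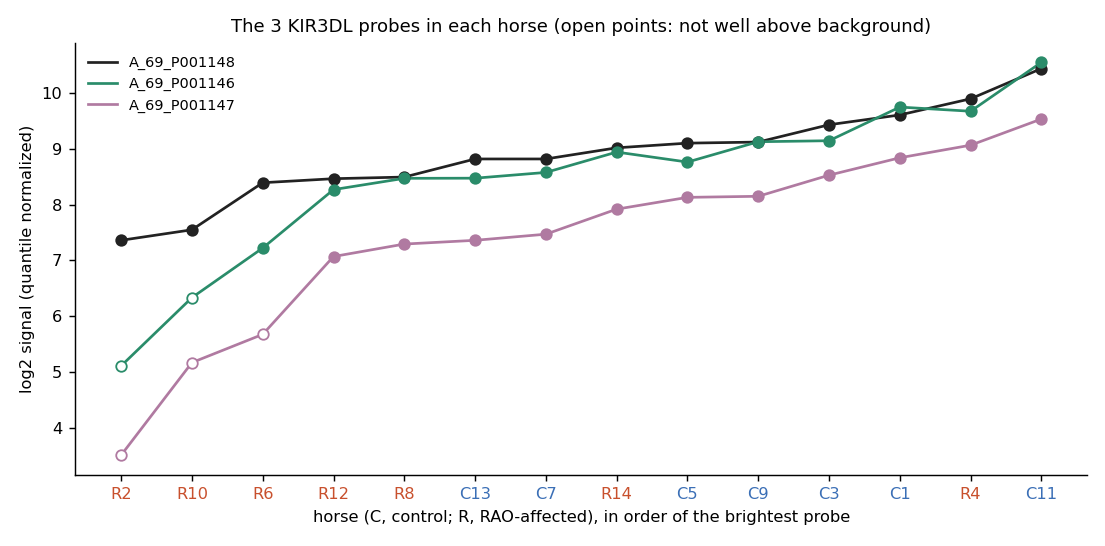
Log2 signal after quantile normalization (y axis) of the 3 KIR3DL probes in each of the 14 horses (x axis, C for control and R for RAO-affected, in order of the brightest probe), with open points where signal was not well above background. The lines rise through the horses in nearly the same order, from R2, the lowest at all 3 probes, to C11, the highest. They are not parallel, with ranges of 3.08 at A_69_P001148, 5.44 at A_69_P001146 and 6.02 at A_69_P001147. The first 5 horses on the left are RAO-affected.

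In RefSeq's gene table for the horse assembly TB-T2T, KIR3DL is followed by FCAR, a receptor for the Fc part of IgA, and NCR1, an activating receptor of natural killer cells, and is preceded at 9 protein-coding genes by ILT11B, an immunoglobulin-like transcript. Several genes between them carry only locus numbers, and binding of their transcripts to the KIR3DL probes was not tested. FCAR and ILT11B did not go the way of KIR3DL. Both were chosen after their values were seen. FCAR differed by 0.79 (SE 0.68, exact two-sided permutation p = 0.280) and ILT11B by 1.09 (SE 0.62, exact two-sided permutation p = 0.103), and neither passed in limma. ILT11B passed the unadjusted threshold of limma without RAO-affected horse 4 (1.41), without RAO-affected horse 10 (1.36) and with array weights (1.27).

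EQMHCC1 showed the widest spread of the 5 probes. In control horses 1, 3, 5, 7, 9, 11 and 13 its log2 signal was 15.02, 15.90, 15.94, 15.18, 9.23, 14.77 and 15.49, respectively. In RAO-affected horses 2, 4, 6, 8, 10, 12 and 14 it was 14.08, 11.71, 8.96, 8.93, 14.01, 9.79 and 14.22, respectively. Control horse 9 lay far below the other 6 controls and among the low RAO-affected horses, and the 3 highest RAO-affected horses lay below those 6 controls. Control horses 3 and 5 were saturated, so their values are lower bounds.

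The RAO-affected mean was 11.67 ± 2.45 (SD, n = 7) and the control mean 14.50 ± 2.37 (SD, n = 7). The log2 difference was -2.83 (SE 1.29, exact two-sided permutation p = 0.0455, and p = 0.0341 unadjusted in limma). Limma's adjusted p was 0.873. Every RAO-affected horse lay below the mean of the controls, and 2 of 7 lay below every control horse. Only control horse 9 lay below the mean of its own group, so the mean and SD describe the controls poorly.

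The 14 EQMHCC1 values fell into separate levels. Splitting the ordered values wherever neighbours differed by more than 1 on the log2 scale gave 3 levels. The lowest held 4 horses between 8.93 and 9.79, namely RAO-affected horses 8, 6 and 12 and control horse 9. RAO-affected horse 4 lay alone at 11.71. The highest held 9 horses between 14.01 and 15.94, of which 3 were RAO-affected and 6 were controls. The gaps between levels were 1.92 and 2.30, the latter 4.92-fold, while no other pair of neighbours in the order differed by more than 0.56.

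On the scanner's own intensity scale, before any scaling between arrays, the lowest level spanned 416 to 953, the horse between the levels measured 4782, and the highest level spanned 15298 to 63597. The probe was well above background in every horse, so the lowest level is a measured signal. The lowest 4 horses and the fifth horse were the same on all 5 scales tried (quantile normalization, no scaling, 75th percentile scaling, normexp correction and the deposited ratios). Without scaling the larger gap, of 2.33, was the one above the lowest 4 horses.

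Such a spread was uncommon on the array. The range over the 14 horses was 7.01, or 128-fold, which is a lower bound because the highest horse was saturated. As measured, 216 of the 38037 probes compared had a range at least as large. Only 32 of these probes (0.0841%) had 2 gaps that were each at least as large as the smaller of these gaps. This count takes its limit from the EQMHCC1 values themselves, so it is a description and not a test. As a share of the EQMHCC1 range, the largest gap was ordinary, at 32.8%, and 34.4% of probes had a share at least as large. In 1 other probe the largest gap separated the same 5 horses from the same 9, with a gap of 0.50. This probe, A_69_P041204, was not assigned to a gene here.

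**Figure D3:**
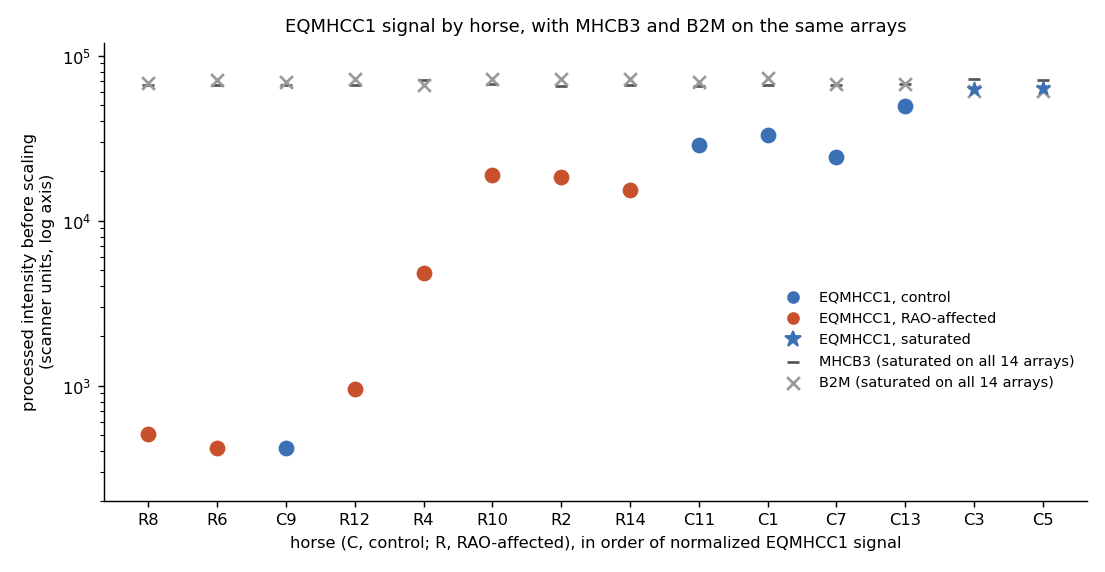
Processed intensity in scanner units before scaling (y axis, log scale) of EQMHCC1 in each horse (x axis, C for control and R for RAO-affected, in order of normalized EQMHCC1 signal), with stars for saturated spots, and of MHCB3 and B2M on the same arrays. EQMHCC1 lies at 416 to 953 in the 4 horses on the left and at 15298 or more in the 9 on the right. MHCB3 and B2M were saturated in all 14 horses and mark the top of the scanner's range.

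A probe that reads some alleles of a gene and not others gives separate levels. Whether the EQMHCC1 probe does so was not tested, since neither the MHC types of the horses nor the probe's sequence was used here. For the same reason horses were not compared by level. The EQMHCC1 difference between groups follows from how many horses of each group lay in each level (3 of 7 RAO-affected against 1 of 7 control horses in the lowest) and from the order within the highest, in which the 3 RAO-affected horses were the lowest of 9.

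With slide as a fixed block the EQMHCC1 difference was -2.41 (adjusted p = 0.452), and without slide 1 it was -2.27 (adjusted p = 0.562), and neither passed the unadjusted threshold of limma. Within slides it was -3.58 on slide 2 and -3.13 on slide 4, and on slide 1, where both controls were saturated, the measured difference of -4.21 is a bound. On slide 3, where the control was horse 9, it was 2.24 in the opposite direction. Leaving out 1 horse at a time, it ranged from -3.71 to -2.38 and passed the unadjusted threshold of limma in only 5 of 14 fits. The value farthest from 0 came without control horse 9. The call was lost without any 1 of the other 6 control horses, and without RAO-affected horses 6, 8 or 12, the horses of the lowest level. Weighting the arrays by their quality gave -2.04, which did not pass.

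In the gene table EQMHCC1 lies among genes with locus numbers, near DDX39B, LTA and TNF, and 5 protein-coding genes from MHCB3, which also belongs to the MHC. MHCB3, chosen after its values were seen, was saturated in all 14 horses, at 16.01 to 16.12, so that levels could not have been seen in it. B2M, the light chain with which every MHC class I heavy chain pairs, was also saturated in all 14 horses at both of its probes, at 15.76 to 16.17. No fold is given for either, because a saturated spot has only a bound.

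CD2 signal was high in every horse. In control horses 1, 3, 5, 7, 9, 11 and 13 its log2 signal was 13.53, 14.04, 14.45, 13.24, 14.23, 14.21 and 14.55, respectively. In RAO-affected horses 2, 4, 6, 8, 10, 12 and 14 it was 13.57, 15.23, 13.38, 13.37, 13.45, 13.25 and 13, respectively. RAO-affected horse 4 had the highest value of all 14, and the other 6 RAO-affected horses lay between 13 and 13.57, within or below the range of the controls. Only RAO-affected horse 14 lay below every control horse.

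The CD2 mean was 13.61 ± 0.74 (SD, n = 7) in the RAO-affected and 14.03 ± 0.48 (SD, n = 7) in the control group. The log2 difference of -0.43 (SE 0.33) was within the SD of either group, with an exact two-sided permutation p of 0.230 and an unadjusted p of 0.201 in limma (adjusted p = 0.924). RAO-affected horse 4 alone decided this. Without it the difference was -0.70 and passed the unadjusted threshold of limma (adjusted p = 0.289), and in the other 13 fits without a horse no call was made, and the difference nearest 0 was -0.33. Without slide 1, which also removes that horse, the difference was -0.61, and with array weights it was -0.59, both past that threshold.

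With slide as a fixed block the CD2 difference was -0.31 and did not pass (adjusted p = 0.648). Within slides it changed direction. RAO-affected horses were higher on slide 1 (0.98) and level on slide 2 (0.10), and lower on slides 3 (-0.82) and 4 (-1.25). In the gene table CD2 is followed by IGSF3 and CD58, the latter encoding its ligand. CD58 and CD48 were not analysed here.

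**Figure D4:**
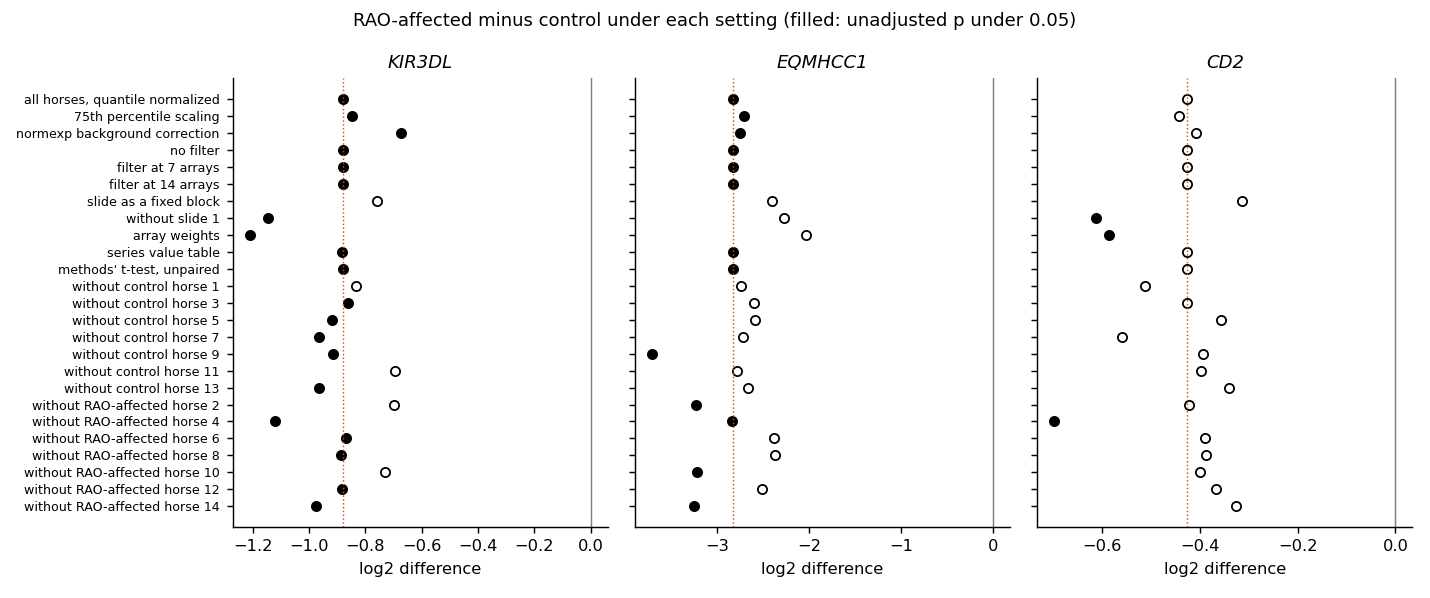
Log2 difference, RAO-affected minus control, (x axis, with its own range in each panel) for KIR3DL at its brightest probe, EQMHCC1 and CD2, under each setting (rows), with filled points for an unadjusted p under 0.05 and a dotted line at the value with all horses. All points lie below 0; KIR3DL and EQMHCC1 lose the call with slide as a fixed block, and CD2 gains it without RAO-affected horse 4.

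Other genes of the same systems were taken from lists of 130 genes of natural killer cells, of MHC class I and antigen processing, and of CD2 and T cells. Of these, 22 were located among the named probes, since only 1231 probes (2.82%) could be given a gene name, and each was represented by its brightest probe. In limma 4 of the 22 were lower in RAO-affected horses at an unadjusted p under 0.05 (KIR3DL, EQMHCC1, IL12B and IL4), where 2.76% of all probes tested were, and 0 were higher, where 2.86% of all probes tested were. The 22 include KIR3DL, EQMHCC1 and CD2 themselves, and the study had picked out KIR3DL and IL4 from these same arrays. The count is therefore not independent evidence about these systems. The median log2 difference over the 22 was -0.28, against -0.03 over all probes tested. With slide as a fixed block 1 of the genes passed, and without RAO-affected horse 4 there were 7.

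The natural killer list held 59 genes, of which 13 were located, 2 were lower (KIR3DL and IL12B) and 0 higher. The 4 LY49 genes are among them, lectin-like receptors that take the part of KIR molecules in rodents and that the horse carries beside KIR. LY49C measured 7.39 to 10.42 in RAO-affected and 8.33 to 9.97 in control horses, and differed by -0.28 (SE 0.43), while its other probe differed by -1.12 and the mean over both by -0.70. LY49E measured 7.32 to 9.31 against 8.11 to 9.52 and differed by -0.49 (SE 0.31), with -0.89 at another probe and -0.70 as the mean over its 3 probes. Neither passed in limma (adjusted p = 0.982 and 0.904). At LY49E 4 of 7 RAO-affected horses lay below every control horse.

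LY49F measured 10.17 to 11.45 in RAO-affected and 10.05 to 12.33 in control horses, and differed by -0.29 (SE 0.34). LY49D signal was well above background in 2 of the RAO-affected and 4 of the control horses, and its difference of -0.65 (SE 0.40) lay near the detection limit. Each of the 4 LY49 genes thus had a difference below 0 that did not pass with all horses weighted alike, and each stayed below 0 under every scaling and without any single horse. With array weights LY49D (-0.78) and LY49E (-0.51) passed the unadjusted threshold of limma. LY49D also passed without control horse 13 (-0.83), RAO-affected horse 4 (-0.85) or RAO-affected horse 14 (-0.82), and LY49E without RAO-affected horse 14 (-0.67). The lectin-like receptors KLRF1 and KLRB1 of natural killer cells differed by -0.40 (SE 0.25) and -0.12 (SE 0.48), and KLRB1 changed sign without control horse 1, control horse 11 or RAO-affected horse 4. KLRF1 passed the unadjusted threshold of limma without control horse 5 (-0.54).

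Of the listed genes of the killing machinery only GNLY and GZMB were located, and both stayed close to 0 at their brightest probes. GNLY, a pore-forming protein of cytotoxic granules, measured 12.25 to 14.42 in RAO-affected and 12.62 to 13.85 in control horses, a difference of 0.05 (SE 0.30). GZMB, the granule protease granzyme B, measured 14.61 to 15.93 and 14.33 to 15.79, a difference of 0.02 (SE 0.27), with 1 RAO-affected array saturated. Both changed sign under other settings, GZMB also with normexp correction (-0.003) and at its other probe (-0.20). IFNG, the main cytokine of natural killer and Th1 cells, differed by -0.25 (SE 0.20).

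Of the cytokines that drive natural killer cells, IL12B, a subunit that IL-12 shares with IL-23, measured 3.05, 5.57 and 7.95 at the lowest, median and highest in RAO-affected horses and 6.23, 6.72 and 8.28 in control horses. In 4 of 7 RAO-affected horses it lay below every control horse, and 3 RAO-affected horses were not well above background. Its difference of -1.44 (SE 0.67) passed the unadjusted threshold of limma, while the exact two-sided permutation p was 0.0513. It was -0.54 with normexp correction, lost the call with slide as a fixed block (-1.11) and in the methods' t-test, and passed in 7 of the 14 fits without 1 horse. Those that lost it left out control horses 3 (-1.24), 5 (-1.31) or 9 (-1.38), or RAO-affected horses 8 (-1.003), 10 (-1.42), 12 (-1.38) or 14 (-1.25). IL12A, the other IL-12 subunit, differed by 0.21 (SE 0.23) and IL18 by 0.17 (SE 0.16).

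**Figure D5:**
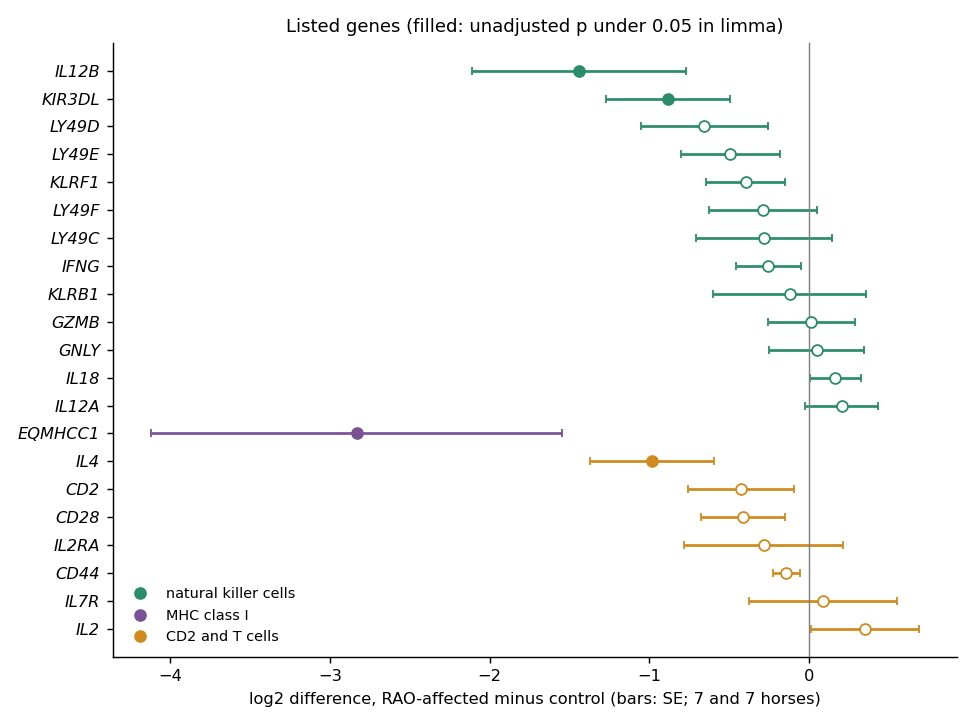
Log2 difference, RAO-affected minus control (x axis; points with bars of 1 SE; 7 horses a group), of the located genes of the 3 lists (y axis, coloured by list), with filled points for an unadjusted p under 0.05 in limma; B2M, saturated in every horse, is not drawn. The 4 filled points (IL12B, KIR3DL, EQMHCC1 and IL4) all lie below 0, and GZMB and GNLY lie at 0.02 and 0.05, with signs that turned under other settings.

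The MHC class I list held 31 genes, of which only EQMHCC1 and B2M were located under the names listed. MHCB3, given above, was not on the list under that name. The transporters and proteasome subunits that load MHC class I molecules were not analysed here. The list on CD2 and T cells held 40 genes, of which 7 were located and 1, IL4, was lower. IL4, the lead cytokine of Th2 cells, differed by -0.98 at its brightest probe (SE 0.39, exact two-sided permutation p = 0.0297), and 15 of its 17 probes were lower past the unadjusted threshold. These probes are repeat readings of the same gene. At the brightest, 5 of 7 RAO-affected horses were well above background, so the low values lie near the detection limit. With normexp correction its difference was -0.50, still past the unadjusted threshold of limma. The study had picked out IL4 from these arrays too.

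Apart from IL4, the T cell receptors and cytokines located beside CD2 did not pass in limma with all horses. CD28, the costimulatory receptor of T cells, measured 6.96 to 8.67 in RAO-affected and 7.48 to 8.83 in control horses and differed by -0.41 (SE 0.26, exact two-sided permutation p = 0.142). Without RAO-affected horse 4 (-0.54) or control horse 1 (-0.55) CD28 passed the unadjusted threshold of limma. CD44, an adhesion receptor of activated T cells, differed by -0.14 (SE 0.08), with 4 RAO-affected and 5 control arrays saturated. IL2 differed by 0.35 (SE 0.34), IL2RA by -0.28 (SE 0.50) and IL7R by 0.09 (SE 0.46), and IL7R changed sign with slide as a fixed block (-0.18).

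The genes most like CD2 in pattern were sought among 442 named genes that were well above background on all 14 arrays, after each slide's mean was subtracted. They were FUNDC2, a mitochondrial outer membrane protein (Pearson r 0.943, Spearman rho 0.925), CENPX, a centromere protein (r 0.912, rho 0.895), and FEZ1, known from axon growth (r 0.882, rho 0.903). Exact permutation within slides gave adjusted p values over the 442 genes of 0.0107 for FUNDC2, 0.0570 for CENPX and 0.0174 for FEZ1 by r, and of 0.0178, 0.0753 and 0.0189 by rho. Without the 2 horses farthest from the median the r values were 0.905, 0.902 and 0.858. In the 11 horses outside slide 1, without the slide means subtracted, r was 0.805, 0.701 and 0.468. Over all 14 horses, also without the slide means subtracted, FEZ1 had an r of -0.59. Its likeness over all horses thus held only with the slide means subtracted.

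For KIR3DL no likeness stood out. The 3 genes with the highest r were SKI (0.703, rho 0.679), SPTBN1 (0.662, rho 0.675) and KLRB1 (0.661, rho 0.429), each with an adjusted p of 0.958 by r and 0.878 by rho over the 442 genes (exact permutation within slides). Without the 2 farthest horses r was 0.582 for SKI, 0.857 for SPTBN1 and 0.365 for KLRB1, and without the slide means subtracted KLRB1 had an r of 0.04. No such search was made for EQMHCC1, whose values lie in separate levels.

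Few markers of the cells that a lymph node holds were located among the named probes. The paper reports CD163 and SFTPC, also on the marker lists, as higher on these arrays, and neither was located here. Of 8 T cell markers only CD28 was located, and of 7 natural killer markers KIR3DL, GNLY and GZMB, of which KIR3DL alone passed. Of 10 B cell markers 2 were located, and CD40 was lower by a log2 difference of -0.43 (exact two-sided permutation p = 0.0501; past the unadjusted threshold of limma). This call was lost with 75th percentile scaling (-0.44), with normexp correction (-0.41) and in 9 of the 14 fits without 1 horse (-0.56 to -0.34 over all 14). The mean of the 2 was 11.60 to 13.16 in RAO-affected and 12.38 to 13.80 in control horses. Markers of macrophages, vessels and matrix were higher in part, with CD14 at 1.11, SELP at 1.64, CAV1 at 1.21 and LUM at 1.51 (each with an unadjusted p under 0.05 in limma; LUM in 6 RAO-affected horses, since 1 spot was left out). CAV1 lost its call with slide as a fixed block (1.16) and in 4 of 14 fits, those without control horses 7 or 13 or RAO-affected horses 12 or 14 (0.857 to 1.099), while BGN (0.41) and CD74 (-0.32) gained one with the block.

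The mean of the 4 located of 7 endothelial markers was 11.27 to 14.31 in RAO-affected and 10.59 to 12.05 in control horses. The highest of these came from RAO-affected horse 12, whose SELE spot was saturated at 15.81 (8.19 to 10.32 in the other RAO-affected horses), and the next highest was 13.09. That of the 3 located of 8 fibroblast and matrix markers was 14.27 to 15.69 and 13.70 to 15.05, and that of the 2 located of 10 macrophage markers 13.84 to 15.66 and 13.35 to 15.89. In the same lists CD68 (0.04), DCN (0.19), BGN (0.33), PECAM1 (0.45) and SELE (1.46) did not pass in limma with all horses and no block. For SELE the exact two-sided permutation p was 0.0408. Without slide 1 PECAM1 (0.93) and BGN (0.57) passed the unadjusted threshold of limma, as did CD74 (-0.38). Whether cell makeup differed between the groups was not tested here. Nor was its part in the differences of KIR3DL, EQMHCC1 and CD2. In node sections from some of the horses, the paper reports lower eosinophil scores in the RAO-affected group. It found no difference in pigment-laden macrophages, and saw neutrophils only in RAO-affected horses, without a significant difference. Of the 11 markers of MHC class II and dendritic cells 2 were located, and ITGAX passed at 0.58 at the brightest of its 7 probes, the only one to pass (mean over its probes 0.31, not past the threshold), while CD74 differed by -0.47. The 2 located of 10 eosinophil and mast cell markers were TPSB2 (0.77) and FCER1A (1.04), and neither passed. PRG2 and PRG3 of that list, which the paper reports lower in RAO-affected nodes, were not located here. SFTPA1, the 1 located of 10 airway epithelial markers, did not pass either. No marker of the neutrophil list or of the plasma cell list was located among the named probes.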

How the data were processed

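RNA from whole mediastinal lymph node of 14 horses was hybridized to 1-colour Agilent arrays, 1 horse an array. The authors deposited each spot's scanner intensity, background-subtracted by Feature Extraction (10.5.1.1 in the file headers, 9.1 in the submitters' processing notes) but unscaled. A second deposited file is a table of linear ratios of the quantile-normalized signal to each probe's median (lowest correlation with the scanner values 0.999). The study's methods quantile normalize, remove poorly performing probes by a rule not given in the sources used here, and name a paired t-test without the pairs.

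The 1417 control spots and flagged spots (19 to 177 per array) were left out, spots of a probe were averaged, and log2 intensities were quantile normalized. Limma tested the 38674 probes with signal well above background on 4 or more of 14 arrays (lmFit and eBayes, two-sided, unpaired, Benjamini-Hochberg adjustment). A call was an unadjusted p under 0.05, with 2-fold given beside it. Single values also had an exact permutation test of the group labels (3432 splits, smallest p 0.000583). Probes were named through the RefSeq gene table of assembly TB-T2T (1231 probes, 592 genes), and no coordinates or sequences were taken from it. Where a gene had several probes, the one of highest mean signal was used. Precision is limited by the 7 horses a group.

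Alternatives were 75th percentile scaling, normexp correction (offset 50), no filter or filters at 7 and 14 arrays, slide as a block, no slide 1, array weights, the ratio table, the methods' t-test unpaired, the mean over probes, and leaving out each horse. Genes named are the members, the located genes of the lists and markers, the 3 genes most like KIR3DL and CD2, and those said to be chosen after their values were seen. The members and lists were chosen with earlier results of these data known. The fit was tested on simulated data. Software was limma 3.58.1 in R 4.3.3 with version 1.17.8 of data.table, and Python 3.11.15 with scipy 1.17.1, pandas 2.3.3, matplotlib 3.10.9 and numpy 2.4.6.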

Additional observations from a re-analysis of the deposited data

Results flagged for a closer look

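Of 48 groups of 7 horses examined (the members and the other located listed genes, by group), 5 held a horse far from the rest by Dixon's ratio of its gap over the range, at a critical value that flags about 5% of groups by chance. For EQMHCC1 it was control horse 9, at 9.23 against 14.77 to 15.94 in the other controls. For CD2 it was RAO-affected horse 4, at 15.23 against 13 to 13.57. The same horse, whose array lay on slide 1, was also apart for LY49F, at 11.45 against 10.17 to 10.65. For KLRF1 RAO-affected horse 10 lay at 11.80, against 10.87 to 11.25 in the others. For IFNG control horse 9 lay at 9.76, against 9.03 to 9.26.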

How the results depend on the processing

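The differences of KIR3DL, EQMHCC1 and CD2 stayed below 0 under every alternative tried. KIR3DL, at its brightest probe, lost its call with slide as a fixed block (-0.76); over its alternatives that kept all horses or left out slide 1 it ran from -1.76, at another of its probes, to -0.67, and without single horses from -1.12 to -0.70. EQMHCC1 lost its call with the block (-2.41), without slide 1 (-2.27) and with array weights (-2.04), and ran from -3.71 to -2.38 without single horses. CD2 gained a call without slide 1 (-0.61) and with array weights (-0.59), and ran from -0.70 to -0.33 without single horses. The 569 probes past 2-fold and an unadjusted p under 0.05 became 262 with normexp correction, 291 with the filter at 14 arrays and 1111 without slide 1, and 386 to 1117 without single horses, the highest without RAO-affected horse 4. The 4 listed genes called became 2 with the filter at 14 arrays, 1 with the block, and 2 to 7 without single horses. The causes were not tested. The sign turned for GZMB with normexp correction (-0.003), without slide 1 (-0.22), with array weights (-0.22) and as the mean over its probes (-0.091); for GNLY without slide 1 (-0.025) and with weights (-0.10); and for IL7R with the block (-0.18), without slide 1 (-0.39) and with weights (-0.31). Without single horses GZMB ran from -0.14 to 0.15, GNLY from -0.17 to 0.19, IL7R from -0.16 to 0.28 and KLRB1 from -0.33 to 0.12. After adjustment 0 probes passed in every setting in limma. No paired analysis was possible because the groups share no replicate numbers and the pairs of the methods' test are not given in the sources used here. Signal over background limits the 2 dimmer KIR3DL probes, LY49D, IL12B and IL4 at their low end, and saturation limits EQMHCC1, CD44 and B2M at the high end.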
